A study of Arabidopsis thaliana with 27 samples.

Results

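TRIPTYCHON (TRY, AT5G53200) was followed across an expression map of the Arabidopsis thaliana root. The ATH1 microarray has 1 probe set whose annotation lists TRY and no other gene. This probe set, 1 of the 22746 that were tested, was taken for TRY by annotation and not by its signal. The gene itself was chosen with earlier results of these data known. The gene lies on chromosome 5.

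TRY encodes a small MYB protein with a single R3 repeat and no activation domain of its own. In the epidermis, the R3 MYBs are made in cells where a complex of a MYB such as WEREWOLF, a bHLH such as GL3 or EGL3 and the WD40 protein TTG1 is active. They move into neighbouring cells and displace the activating MYB there. In the root this lateral inhibition separates atrichoblasts, which stay hairless and express the homeobox gene GL2, from trichoblasts, which grow a hair, and in the leaf it spaces the trichomes. TRY acts together with its paralogue CPC, and loss of TRY alone is known best for clustered leaf trichomes.

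RNA was hybridised to 27 arrays, 1 per sample. Of these, 15 came from 5 lines that carry a GFP marker, with 3 arrays per line. GL2 (GL2:GFP, background Columbia) marks atrichoblasts upward from the quiescent centre. J3411 (J3411:GFP, C24) marks the lateral root cap together with epidermis. WOL (WOL:GFP, Columbia) marks the stele and fades from the elongation zone on. SCR (SCR:GFP, Landsberg) marks endodermis and quiescent centre, although its replicate 1 has no tissue label. J0571 (J0571:GFP, Columbia) marks both ground tissue layers, cortex and endodermis, and the quiescent centre. The other 12 arrays came from Columbia root segments, 4 per stage: Stage I at the point of full root diameter, near 0.15 mm from the tip, Stage II near 0.3 mm, where cells begin to expand lengthwise, and Stage III from 0.45 to 2 mm, where hairs have reached full length. For every group the medium was MS with 4.5% sucrose, and a day had 16 h of light and 8 h of dark. The marker is the activity of 1 promoter or enhancer trap per line. The labels do not say how marked cells were collected or whether replicates were grown independently. The p-values therefore cover only how far these samples differ from each other, which may be technical. C24 and Landsberg each occur in 1 line only. Where J3411 or SCR is compared with another line, tissue and genetic background cannot be told apart.

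The median signal per array was 27.3 to 43.7. Signal is the MAS5 value that the authors deposited, on a linear scale, and 14.8 was taken as its background level, the 95th percentile of 12 bacterial control probe sets that were not spiked. Of the 4 atrichoblast markers listed, GL2, WER, MYB23 and TTG2, 0 had a probe set assigned to them alone, so the label of the GL2 line was checked only by the markers of other cells. The summed signal of the 2 endodermis markers was 19.6 to 36.3 in GL2, that of the 2 cortex markers 17.2 to 35.7 and that of the 2 stele markers 22.1 to 35.8, against up to 4658, 904 and 426 in other lines. The J3411 sums, 24.1 to 67.1, 23.0 to 38.9 and 29.8 to 43.7, overlapped those of GL2, so they do not set GL2 apart from J3411. The stele sums of SCR, 28.3 to 67.5, and of J0571, 34.4 to 64.0, overlapped those of GL2 as well. The 5 root hair markers summed to 428 to 488 in GL2, against 679 or more in the other lines, and most of the GL2 sum came from CSLD2 and SCN1. Lines that mark no epidermis had sums of 745 to 800 (J0571), 933 to 1080 (SCR) and 1085 to 1578 (WOL). A lower sum in GL2 therefore does not show that hair cells were absent from it. Of the 5, CSLD2 and SCN1 were lower in GL2 than in the other lines in limma and 3 did not pass, with 7.69% of all probe sets called lower. EXPA18 averaged 45.6 in GL2, above 30.04 in J0571 and 33.8 ± 37.6 (SD) in SCR but below 95.4 in J3411 and 207 in WOL. EXPA7 had its lowest line mean in GL2, 16.2, and AT3G49960 averaged 1.16 in GL2 and 1.10 in J0571, its lowest. The 4 root cap markers summed to 1159 to 1372 in GL2, below the 2940 to 5962 of J3411. They were above the sums in SCR, WOL and J0571, the highest of which was 1155, but most of the GL2 sum came from sks15, at 1082. The other 3 root cap markers had lower means in GL2 than in WOL, with AT4G04460 at 81.1 in GL2 against 348 in WOL. J3411 replicate 3 and SCR replicate 1 differed from the other arrays of their lines in these markers, and both are named below where TRY depends on them.

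TRY was highest in the atrichoblast line. In GL2 its signal was 59.3, 83.0 and 97.5 on the 3 arrays. In J3411 it was 44.5, 52.9 and 24.2. In WOL it was 18.9, 17.0 and 21.6. All 3 GL2 arrays lay above all 12 arrays of the other lines, which 2.00% of the probe sets tested also showed, and the WOL arrays lay close together just above background. In SCR the signal was 32.4, 17.9 and 3.09, and in J0571 it was 11.9, 15.6 and 2.37. These ground tissue lines had the lowest arrays, and 2 of 3 SCR arrays and 1 of 3 J0571 arrays exceeded background.

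**Figure D1:**
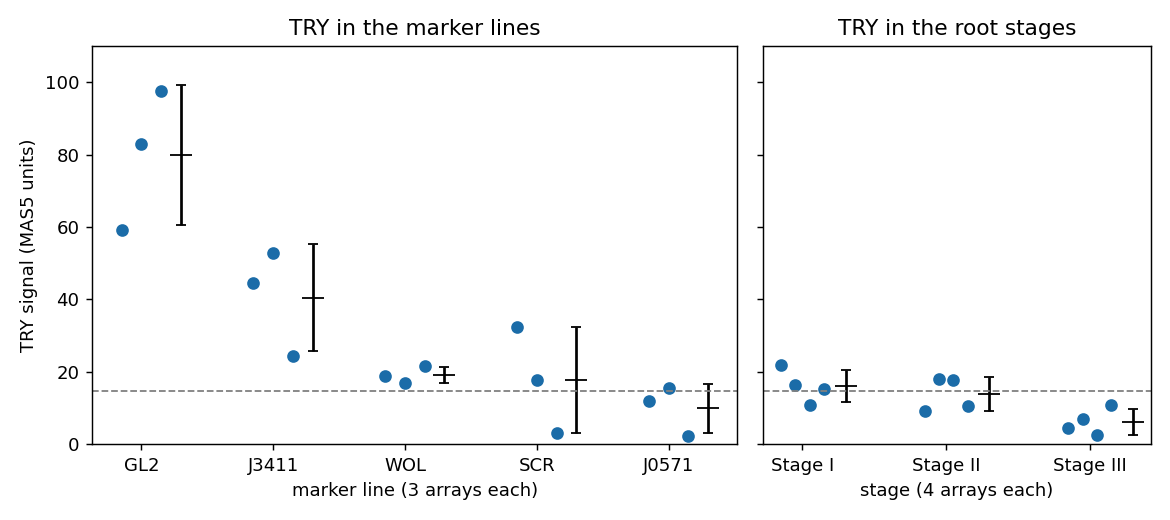
TRY signal (MAS5 units, linear axis from 0) on each array of the 5 marker lines (left) and the 3 root stages (right). Points are arrays, the horizontal marks and bars are the mean and SD of the group, and the dashed line is the background level of 14.8. The 3 GL2 arrays sit between 59.3 and 97.5, above all other arrays, and the 4 Stage III arrays lie below the dashed line.

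The first comparison asked whether TRY differs between atrichoblasts and the other marked tissues. TRY averaged 79.9 ± 19.3 in GL2 (SD, n = 3) and 21.8 ± 15.1 in the other 4 lines (SD, n = 12). The log2 difference was 2.04 ± 0.48 (SE), a 4.12-fold higher value on the log2(signal + 2.37) scale, with an adjusted p of 0.00979 in limma. An exact two-sided permutation test of the 3 arrays against the 12 gave p = 0.0044, the smallest that this design allows, and 0.022 adjusted over the 5 lines. Limma called 5.10% of all probe sets higher in GL2, and TRY ranked 163 of those 1159 by the size of the difference. Its difference was larger than that of 99.2% of the probe sets tested. With signals below background raised to it, the ratio of geometric means was 3.59. Without GL2 replicate 3, its highest array, the log2 difference was 1.89 and the call was lost (adjusted p = 0.0701).

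In no other line did TRY pass the threshold against the remaining 4. J3411 had the next highest level, 40.5 ± 14.7 (SD, n = 3) against 31.7 ± 31.2 in the other lines (SD, n = 12), with a log2 difference of 0.82 ± 0.48 (SE, limma adjusted p = 0.365). Limma called 5.02% of all probe sets higher in J3411. WOL averaged 19.1 ± 2.30 against 37.04 ± 31.0, a log2 difference of -0.35 ± 0.48 (adjusted p = 0.797 in limma, with 1.38% of all probe sets called lower). All 3 WOL arrays exceeded background, and their SD was the smallest of the 5 lines. SCR averaged 17.8 ± 14.7 against 37.4 ± 30.1, a log2 difference of -0.91 ± 0.48 (adjusted p = 0.222 in limma, with 9.86% called lower). Without SCR replicate 1 that difference was -1.49 and passed (adjusted p = 0.0461), whereas SCR replicate 1, the only SCR array in the high class of the cre spike-in controls, lay above the high-class arrays of the other lines by 0.24. That value rests on 1 SCR array and has no spread of its own. SCR replicate 2 had a GAPDH 3'/5' ratio, a sign of RNA quality, of 4.09, against 0.72 to 1.95 on the other line arrays, and its part in the SCR values was not tested.

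J0571 had the lowest level, 9.94 ± 6.81 (SD, n = 3) against 39.3 ± 28.9 in the other lines (SD, n = 12). The log2 difference was -1.61 ± 0.48 (SE) and missed the threshold in limma (adjusted p = 0.0702), where 2.25% of the probe sets were called lower. The exact two-sided permutation p was 0.040, and 0.099 adjusted over the 5 lines. Among the Columbia lines alone, J0571 was lower than GL2 and WOL by a log2 difference of -1.96 that passed (adjusted p = 0.0121). Arrays of the high spike-in class alone, with 1 SCR array, gave -1.89, and leaving out SCR replicate 3 gave -1.80 (adjusted p = 0.0133). In all, J0571 passed under 7 of 26 alternatives. With 1 array left out at a time it passed in 1 of 15 fits, with limma adjusted p up to 0.448. Most of the J0571 signals are at or below background, so the true size of this difference is not measured.

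By mean signal the lines ranked GL2, J3411, WOL, SCR and J0571. This order of 5 means was shared by 0.791% of the probe sets tested, and 4.44% had GL2 highest and J3411 next. No pair of neighbours in the order passed the test. GL2 exceeded J3411 on every array, as did 10.6% of all probe sets, by a log2 difference of 0.98 with a 95% interval of -0.31 to 2.26 (limma adjusted p = 0.408, with 2.29% called higher), so the interval holds 0 as well as differences larger than the one measured. J3411 exceeded WOL by 0.94 (-0.35 to 2.22, adjusted p = 0.424, with 4.20% called higher). SCR against WOL gave -0.45 (-1.73 to 0.83, adjusted p = 0.723, with 5.57% called lower). SCR against J0571 gave 0.56 (-0.73 to 1.84, adjusted p = 0.661, with 3.31% called higher). All 3 WOL arrays were above all 3 J0571 arrays, as in 15.1% of all probe sets, with a log2 difference of 1.01 (adjusted p = 0.468, with 2.86% called higher). Without J0571 replicate 3 it was 0.42, and with signals below background raised to it, 0.34.

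Of the 10 pairs of lines, 2 passed in limma, both with GL2. TRY was higher in GL2 than in J0571 by a log2 difference of 2.92 ± 0.60 (SE, adjusted p = 0.00476), where 4.16% of the probe sets were called higher, and this held under each of 25 alternatives. It was higher in GL2 than in SCR by 2.36 ± 0.60 (adjusted p = 0.0123, with 9.17% called higher). That pair passed under 21 of 25 alternatives. With 1 array left out at a time it passed in 13 of 15 fits. It was lost there without GL2 replicate 3 (limma adjusted p = 0.0508) and without SCR replicate 3 (adjusted p = 0.0595). Arrays of the high spike-in class alone gave a difference of 1.21, with 1 SCR array and so no measure of the spread within SCR. GL2 against WOL, both Columbia, gave 1.91 ± 0.60 and an adjusted p of 0.0578, with 2.94% called higher. That pair passed under 11 of 25 alternatives. J3411 against J0571 gave 1.94 ± 0.60 (adjusted p = 0.0675, with 3.84% called higher) and passed under 9 of 25. J3411 against SCR gave 1.39 ± 0.60 (adjusted p = 0.149, with 7.64% called higher) and passed under 2 of 25.

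**Figure D2:**
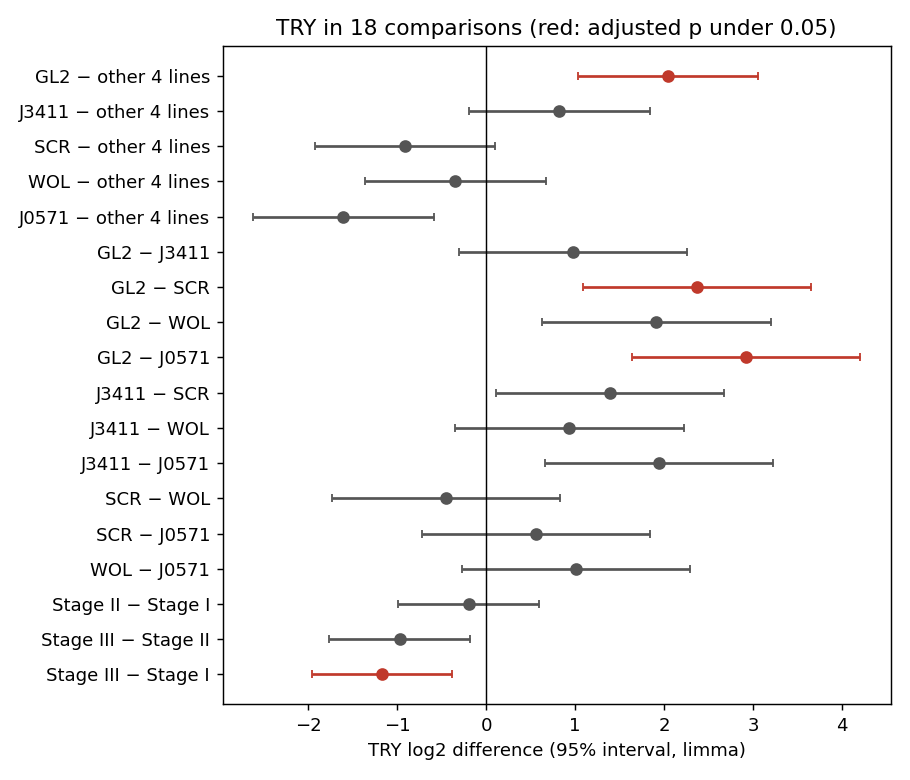
TRY log2 difference (horizontal axis, first group minus second) in each of the 18 comparisons, with its 95% interval from limma. Red points passed an adjusted p of 0.05: GL2 against the other 4 lines (2.04), against SCR (2.36) and against J0571 (2.92), and Stage III against Stage I (-1.17).

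Markers of other cells differed between the arrays of a line, in no common direction with TRY. J3411 replicate 3 had the lowest TRY of its line, 24.2 against 44.5 and 52.9, and it also had the highest root hair sum, 1534 against 679 and 798, and the lowest root cap sum, 2940 against 5769 and 5962. SCR replicate 1 had the highest TRY of its line, 32.4 against 17.9 and 3.09, with a root cap sum of 742 against 89.7 and 73.6. In J0571, the lowest TRY signal, 2.37, was on the array with the highest root cap sum, 429 against 161 and 260. In GL2, TRY signals of 59.3, 83.0 and 97.5 stood beside root cap sums of 1372, 1264 and 1159 and root hair sums of 488, 467 and 428. In WOL, TRY signals of 18.9, 17.0 and 21.6 stood beside root cap sums of 518, 982 and 1155. The part of these markers in the TRY values was not tested. With J3411 replicate 3 and SCR replicate 1 left out, TRY was higher in GL2 than in the other lines by a log2 difference of 2.11 (limma adjusted p = 0.00277), and lower in SCR by -1.57 (adjusted p = 0.032).

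Along the root axis TRY was near background throughout. Stage I had signals of 21.8, 16.4, 10.8 and 15.4, of which 3 exceeded background. Stage II had 9.18, 17.9, 17.7 and 10.7, with 2 above it. Stage III had 4.36, 6.83, 2.64 and 10.9, with 0 above it, and its highest array overlapped the lowest of Stage I and of Stage II. Over the 12 stage arrays the highest TRY signal, 21.8, was below all 6 arrays of GL2 and J3411. Line and stage arrays come from different preparations, and no test was made between them. The GAPDH 3'/5' ratio was 4.34 to 31.7 on the stage arrays, against 0.72 to 1.95 on the line arrays other than SCR replicate 2. Its part in the stage signals was not tested.

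The stages were compared to see how TRY changes as cells leave the division zone, elongate and mature. TRY averaged 16.1 ± 4.51 in Stage I, 13.9 ± 4.59 in Stage II and 6.18 ± 3.58 in Stage III (SD, n = 4 each). Stage II against Stage I gave a log2 difference of -0.20 ± 0.37 (SE, limma adjusted p = 0.780, with 11.1% called lower), with a 95% interval of -0.99 to 0.59. Stage III against Stage II gave -0.97 ± 0.37 (adjusted p = 0.0593), where 15.2% of the probe sets were called lower. Stage III against Stage I gave -1.17 ± 0.37 and passed (adjusted p = 0.0182). The exact two-sided permutation p of that last comparison was 0.057, with 0.029 the smallest possible for 4 arrays against 4, and 0.129 after adjustment over the 3 stage pairs. It takes no account of the spike-in classes or of the replicate numbers, and stage arrays of the same number tended to deviate together. In the low class, Stage III had 4.36 and 6.83 against 21.8 and 16.4 in Stage I, with no overlap, and in the high class it had 2.64 and 10.9 against 10.8 and 15.4.

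Limma called 22.1% of all probe sets lower in Stage III than in Stage I, and 14.6% had a lower difference than TRY. Since all 4 Stage III arrays were below background, the fold is not measured. With Stage III set at background and Stage I as measured, Stage III was 1.06-fold lower. This is not a strict bound, since Stage I replicate 3, at 10.8, was also below background. With signals below background raised to it the log2 difference was -0.19. The call was lost without Stage I replicate 1 (log2 difference -1.03, adjusted p = 0.0567), without Stage III replicate 3 (-0.95, adjusted p = 0.0597) and in the high spike-in class alone (-0.91, adjusted p = 0.326). The low class alone gave -1.44 and passed (adjusted p = 0.0333). In the stage segments, fewer atrichoblasts and less TRY RNA per cell cannot be told apart. Root cap markers had a sum of 1661 to 2827 in Stage I, 433 to 655 in Stage II and 256 to 376 in Stage III. Of the 4, 3 were lower in Stage II than in Stage I (11.1% of all probe sets) and 1 was lower in Stage III than in Stage II (15.2%). Root hair markers had sums of 408 to 670 in Stage I, 816 to 1266 in Stage II and 3851 to 6255 in Stage III. The part of both marker lists in the result was not tested.

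Other genes of epidermal patterning were taken from a list of 34 that act around TRY, of which 4 had a probe set of their own: ATMYC1 (a bHLH partner in the activating complex), QKY (a membrane protein of the SCRAMBLED receptor pathway that carries positional information), JKD (a zinc finger protein that acts from the ground tissue on epidermal fate) and GEM (a regulator of cell division and of GL2 expression). The other 30, CPC, WER, GL3 and GL2 among them, are not analysed here. In GL2, where TRY was highest, 0 of these 4 were higher and 2 were lower, with a median log2 difference of -1.19 against -0.09 over all probe sets and with 7.69% of all probe sets called lower. In J3411, 1 of the 4 was higher and 1 lower (all probe sets 5.02% and 5.28%), and in SCR, WOL and J0571 the counts were 1, 1 and 2 higher and 0 lower (all probe sets 7.61%, 5.27% and 2.44% higher). The call in SCR, JKD, was lost under 10 of 25 alternatives, and that in WOL, QKY, without WOL replicate 1 or replicate 2 (adjusted p up to 0.131).

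ATMYC1 was the member higher in J3411. Its signal was 17.6, 25.0 and 18.5 in GL2, against 76.9, 79.6 and 140 in J3411. It was lower in GL2 by a log2 difference of -2.12 ± 0.49 (SE, limma adjusted p = 0.0205, with 3.09% called lower). For TRY the difference between these lines was 0.98 and did not pass. That call was lost without any 1 of GL2 replicates 1 and 3 and J3411 replicates 1 and 2 (adjusted p up to 0.0717). Along the axis ATMYC1 averaged 123 ± 26.7 in Stage I, 129 ± 23.3 in Stage II and 33.6 ± 6.62 in Stage III (SD, n = 4 each). It fell in Stage III relative to Stage I by 1.80 on the log2 scale (limma adjusted p = 8.32e-06), where 22.1% of all probe sets were called lower. Of the 4 list members, 2 were called lower there, ATMYC1 and QKY, and QKY passed under 20 of 22 alternatives. ATMYC1 and TRY had their lowest stage mean in the hair zone, as did QKY (99.4), JKD (37.0) and GEM (200).

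JKD and QKY were the members lower in GL2. JKD had 1.31, 0.889 and 1.65 in GL2, all below background, and it was lower there than in the other 4 lines (adjusted p = 2.8e-05 in limma). With GL2 set at background and the other arrays as measured, the fold was 1.46. This is not a strict bound, since the J3411 arrays, at 6.13, 2.22 and 4.35, were also below background. JKD was the member lower in J3411 as well. JKD averaged 87.3 ± 31.9 in J0571 (SD, n = 3), the line with the lowest TRY mean, against 14.9 ± 14.2 in the other lines (n = 12), a log2 difference of 2.88 (adjusted p = 6.84e-05). QKY had 13.8, 14.4 and 7.05 in GL2, again below background and at least 2.79-fold lower than in the other lines (adjusted p = 0.000891). QKY averaged 72.9 ± 9.87 in J0571 (SD, n = 3) and 33.2 ± 25.6 in the other lines (n = 12), higher by 1.38 (adjusted p = 0.00889), a call lost without J0571 replicate 1 (adjusted p = 0.0854). GEM had a mean of 189 to 200 in every line and passed in none of the line comparisons.

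**Figure D3:**
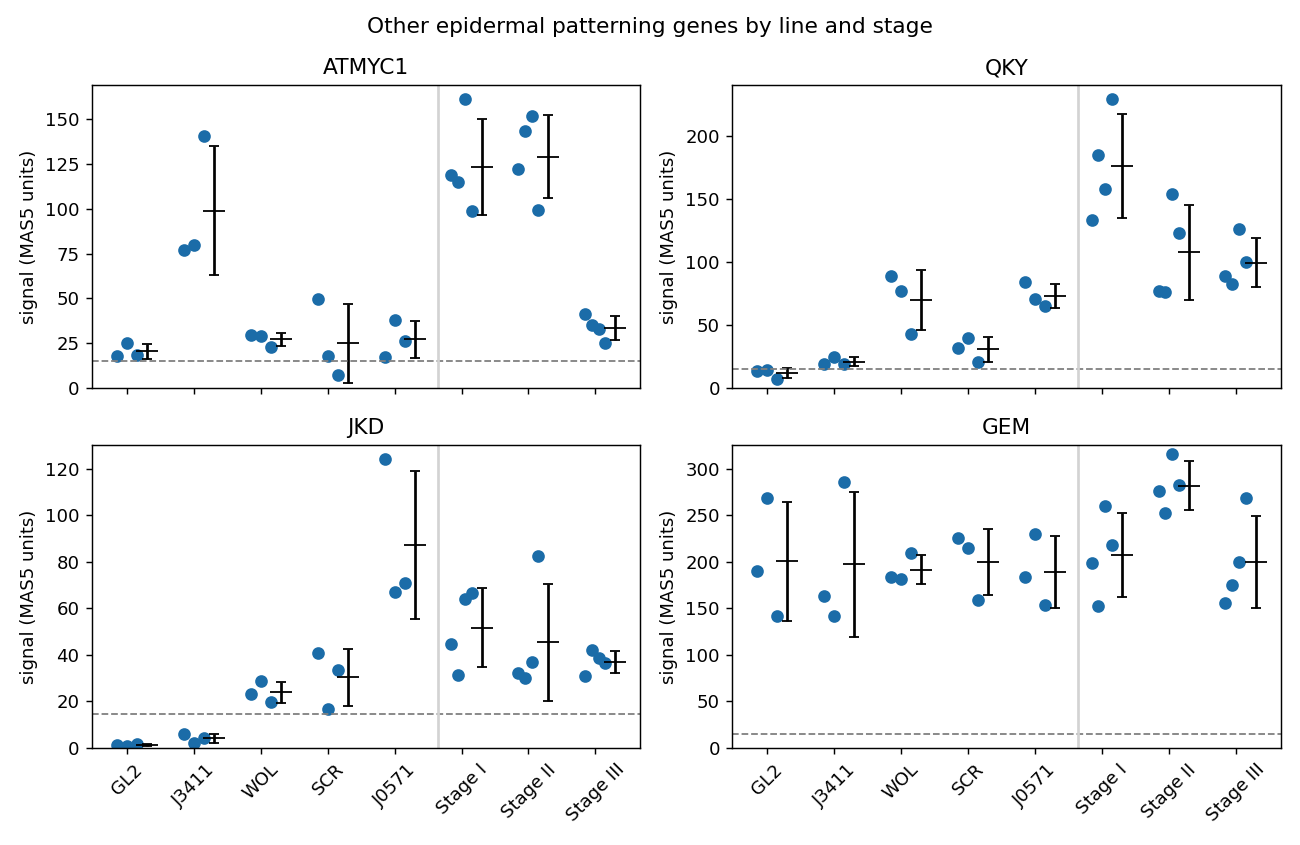
Signal (MAS5 units, linear axes from 0) of ATMYC1, QKY, JKD and GEM on each array of the 5 lines and, right of the grey line, the 3 stages. Points are arrays, marks and bars are mean and SD, and the dashed line is the background of 14.8. ATMYC1 is higher in J3411 than in GL2, JKD is below background in GL2 and J3411, QKY is below it in GL2, and GEM has about the same mean in all lines.

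The genes most like TRY were named by Pearson's r of log2(signal + 2.37) over the 15 line arrays, among 10865 other probe sets with 1 gene and a group mean above background. As a description across arrays that share line and preparation, with no test, the 8 highest were AT5G22550 (r = 0.914), AT5G59930 (0.901), AT1G11200 (0.895), AT3G46720 (0.892), AT3G43670 (0.890), AT3G05390 (0.890), TBL39 (0.887), of the TRICHOME BIREFRINGENCE-LIKE family, and AT4G32870 (0.883). In 6 of them the GL2 mean was the highest of the 5 lines, and AT3G43670 and TBL39 had their highest mean in J3411. These genes were chosen for following TRY over the same arrays, so high means in GL2 and J3411 follow from the choice. AT4G32870 averaged 701 ± 188 in GL2 and 350 ± 62.6 in J3411, against 91.4 ± 76.1 to 140 ± 8.58 in the other 3 lines (SD, n = 3 each). AT3G05390 averaged 127 ± 52.6 in GL2 and 76.6 ± 12.1 in J3411, against 14.6 ± 1.19 in J0571, and its stage means were 235 ± 105, 113 ± 22.7 and 39.6 ± 3.84 from Stage I to Stage III (SD, n = 4 each).

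Over the 12 stage arrays, r with TRY of these 8 genes ran from -0.663 to 0.711, the highest for AT3G05390 and the lowest for AT5G59930, whose mean was 80.0 ± 16.1 in Stage III. The 8 genes most like TRY over the stages began with AT1G48510 (r = 0.904), AT4G34270 (0.899) and AT1G48170 (0.899), and none of the 8 was among those named for the lines. AT1G48510 averaged 75.8 ± 4.59, 53.9 ± 10.2 and 17.8 ± 9.29 from Stage I to Stage III. Since the TRY signal in the stages lies near background, these r values rest on small differences in signal.

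**Figure D4:**
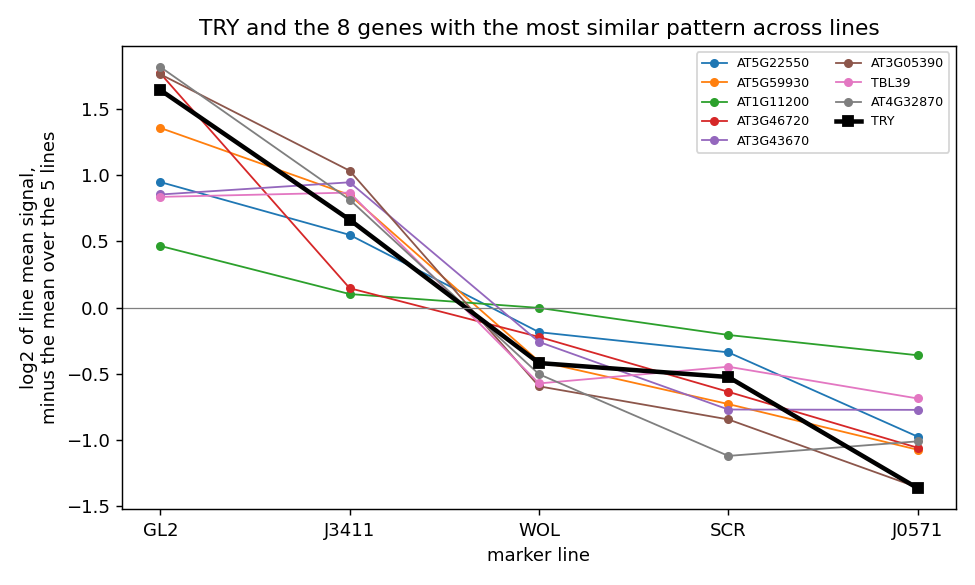
Line means on a log2 scale, each gene centred on its mean over the 5 lines, for TRY (black) and the 8 genes with the highest r over the 15 line arrays. The lines of the plot join the means of GL2, J3411, WOL, SCR and J0571, and each of these genes is higher in GL2 and J3411 than in SCR and J0571. That pattern follows from choosing the genes by r with TRY over the same arrays.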

How the data were processed

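RNA from 27 Arabidopsis root samples was measured on Affymetrix ATH1 arrays, 1 per sample. The deposited values are signal intensities computed with MAS5, per the submitters' processing notes. The sources used here give no version, settings or genome build. Values were used as deposited. Before log2, 2.37 was added as a pseudocount (10th percentile over all arrays), 64 control probe sets were left out and 22746 were tested. The platform annotation assigns 1 gene to 13513 of these, several to 503 and none to 8730.

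Group means were fitted in limma 3.58.1 (R 4.3.3) with an intensity trend, separately for 15 line arrays and 12 stage arrays, and p-values were adjusted by Benjamini-Hochberg over all probe sets within each of 18 comparisons, at 0.05. TRY was also tested by exact permutation (scipy 1.17.1). The model was tested on simulated data.

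TRY, the gene lists and the alternatives were chosen with earlier results of these data known, and 1 alternative (J3411 replicate 3 and SCR replicate 1 left out together) after seeing these values. Named genes were TRY, all patterning genes with their own probe set, and the 8 genes of highest r with TRY in lines and in stages. Spike-in classes (8 low, 19 high) split the cre control signals at their largest gap: replicates 1 and 2 of each stage and SCR replicates 2 and 3 are low. The GAPDH 3'/5' ratio was 4.34 to 7.85 in low and 14.9 to 31.7 in high stage arrays, 4.09 on SCR replicate 2 and 0.72 to 1.95 on the other line arrays. The number of arrays limits the precision. No sequence is shown, because none was in the reference used.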

Additional observations from a re-analysis of the deposited data

How the results depend on the processing

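Of 219 values recomputed for the 9 TRY comparisons of lines with the other lines, GL2 with J3411 and the stages, 200 kept direction and side of the threshold. GL2 against the other lines passed under 25 of 26 alternatives, with log2 differences of 1.85 to 2.24 when 1 array was left out and 1.59 to 2.42 in all; it was lost without GL2 replicate 3 (adjusted p = 0.0701). SCR against the other lines was 0.24 with spike-in class blocked or the high class alone, both of which rest on SCR replicate 1 against the other lines, -1.49 to -0.15 with 1 array left out and -1.57, now passing, without J3411 replicate 3 and SCR replicate 1. J0571 against the other lines passed under 7 of 26 alternatives. It passed with a pseudocount at the 25th percentile (-1.11), all 27 arrays in one fit (-1.61), spike-in class blocked or the high class alone (-1.89), Columbia lines only (-1.96), without J3411 replicate 3 and SCR replicate 1 (-1.54), and without SCR replicate 3, within -1.98 to -1.02 when 1 array was left out. Stage III against Stage II passed after quantile normalization (-1.27), without an intensity trend (-0.97) and without Stage III replicate 4, within -1.22 to -0.75 when 1 array was left out. Stage III against Stage I was -1.42 to -0.95 when 1 array was left out and -0.91, not passing, in the high class alone. Stage II against Stage I was 0.081 in the high class alone. SCR against WOL, never passing, was 0.70 with spike-in class blocked or the high class alone and -1.03 to 0.31 when 1 array was left out. SCR against J0571, never passing, was -0.029 to 1.32 when 1 array was left out and -0.020 without J3411 replicate 3 and SCR replicate 1. The cause of these changes was not tested.

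With the replicate number as a block, TRY in GL2 kept its log2 difference of 2.04 (adjusted p = 0.00784) and Stage III against Stage I its -1.17 (adjusted p = 0.0251); the block changed 1 TRY call, GL2 against WOL, which then passed (adjusted p = 0.0446). Pairing by number was taken only where every same-numbered pair deviated together with r above 0.1. The stages came close, with 11 of 12 pairs above it, a lowest r of 0.098 and a median of 0.20 (-0.10 for other pairs), and 11 of 12 stage arrays correlated best with an array of their own number, a hint from the data and not from the design. Counts of called probe sets ranged from 1605 (without GL2 replicate 3) to 4340 (without J3411 replicate 3 and SCR replicate 1) around 2908 for GL2, from 408 to 1926 around 1066 for J0571, from 389 to 5671 around 3974 for SCR, from 1155 to 3755 around 2341 for J3411, from 738 to 2615 around 1514 for WOL, from 403 to 3185 around 1222 for GL2 against J3411, from 2689 to 5929 around 4564 for Stage II against I, from 4532 to 8312 around 7038 for Stage III against II and from 8139 to 10830 around 9806 for Stage III against I. Signals at or below background (10 of 27 TRY arrays) limit every fold that rests on them.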

Other observations

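Of the 2 genes next to TRY on the chromosome, SPCH was below background in every group. SPCH, the stomatal lineage bHLH gene on one side, had line means of 1.97 ± 0.84 to 2.41 ± 0.70 (SD, n = 3 each) and stage means of 2.18 ± 0.68 to 2.88 ± 1.71 (SD, n = 4 each). SWEET3, of a family of sugar transporters and the neighbour on the other side, averaged 20.6 ± 3.57 in GL2 and 18.4 ± 10.8 in J3411, against 30.9 ± 2.78 in WOL (SD, n = 3 each), and 28.03 ± 8.86 in Stage III against 16.9 ± 3.66 in Stage I (SD, n = 4 each). AT5G53220, the second gene beyond TRY on the side of SPCH, averaged 56.1 ± 15.7 in GL2 and 50.7 ± 5.17 in J3411, against 27.6 ± 7.96 in SCR, 28.1 ± 4.69 in WOL and 43.5 ± 18.4 in J0571. These genes were looked at after the TRY values were known, and no test was made on them.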
